A study of Drosophila melanogaster with 18 samples.

Results

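Thoraces of *w1118* flies, which carry no GeneSwitch driver, account for 6 of the 18 libraries of the series, chosen by the strain, tissue and treatment in their labels. Messenger RNA was sequenced from 3 thorax samples of male flies fed 100 µM RU486 for 10 days and from 3 thorax samples of male flies of the same strain fed the ethanol control. RU486 (mifepristone) is the drug that switches on GeneSwitch-Gal4, and in *w1118* flies, whose only stated genetic feature is the mutant *white* allele for which the strain is named, it has no such target. The adult males had been kept on normal food after eclosion before the diet began. The labels do not say how many thoraces or cultures stand behind a sample, so the tests measure the spread between these samples, which may be partly technical. The other libraries used here are 3 RU486 and 3 control samples from thoraces of *Act88F-GS-Gal4* flies, whose driver is active in flight muscle, and 3 RU486 and 3 control samples from heads of *elav-GS-Gal4* flies, whose driver is active in neurons. They served to decide which genes belong to the body wall and muscle of the thorax, and to ask whether the response to RU486 differed between stocks.

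A fly thorax is mostly indirect flight muscle, with cuticle, fat body, blood cells, the nerve cord and the front of the gut. The male reproductive tract (testes, accessory glands, ejaculatory duct and bulb) lies in the abdomen and carries a very large set of genes that hardly any other tissue uses, so a small amount of it in a dissected thorax is easy to see. The question asked of these 6 samples is which genes of the thorax itself differ between RU486-fed and control flies once the genes of the reproductive tract are set apart. Levels are given in CPM, the usual count unit in which the reads on a gene are scaled to the effective depth of each sample over all genes, and fold changes are on the log2 scale, RU486 over control, with their standard error (SE).

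Between 64165964 and 95439204 reads were counted on genes in the RU486 samples, and between 82050098 and 96176923 in the control samples. Marker genes matched the labels for strain and sex. *white* (*w*) was at 0.0419, 0.599 and 0.223 CPM in RU486 samples and at 0.425, 0.669 and 1.15 CPM in control samples, against 15.7 to 77.3 CPM in *Act88F-GS* thoraces. The male-specific noncoding RNA *roX1* was at 474, 441 and 502 CPM in RU486 samples and at 414, 399 and 447 CPM in control samples. The Hox gene *Abd-B*, which specifies the posterior abdomen, was at 3.73, 5.10 and 4.53 CPM in RU486 samples and at 4.40, 4.51 and 3.95 CPM in control samples. Which tissue these transcripts came from was not tested. No pair of replicates held identical counts.

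Genes of the male reproductive tract were very unequal between these libraries. The 142 listed testis, accessory gland and ejaculatory duct genes took 0.0290%, 0.502% and 0.260% of the counts in RU486 replicates 1, 2 and 3, and 0.491%, 0.679% and 0.773% in control replicates 1, 2 and 3. The mean level of the testis list (spermatocyte and sperm genes) was -0.27, 3.73 and 2.59 log2 CPM in RU486 samples and 3.44, 4.20 and 4.35 log2 CPM in control samples. RU486 replicate 1 thus held almost none of these transcripts, while RU486 replicate 2 lay above control replicate 1, so the groups overlapped. The accessory gland list (seminal fluid proteins) had a mean of -3.33, 1.48 and 2.23 log2 CPM in RU486 samples and of 2.91, 3.06 and 2.85 log2 CPM in control samples, with no overlap. Over all 12980 genes that passed edgeR's filter on low counts, 10.1% lay lower and 9.66% higher in RU486 samples with no overlap of the groups. Of the testis list, 19 of 82 genes tested did so, and of the accessory gland list 47 of 50. The median log2 fold change was -1.19 for the testis list and -1.93 for the accessory gland list, against -0.02 over all genes tested, and no gene of either list passed the test at an adjusted p under 0.05 (edgeR quasi-likelihood test). Whether fewer reproductive cells or less RNA per cell gave these levels cannot be told apart in such samples.

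**Figure D1:**
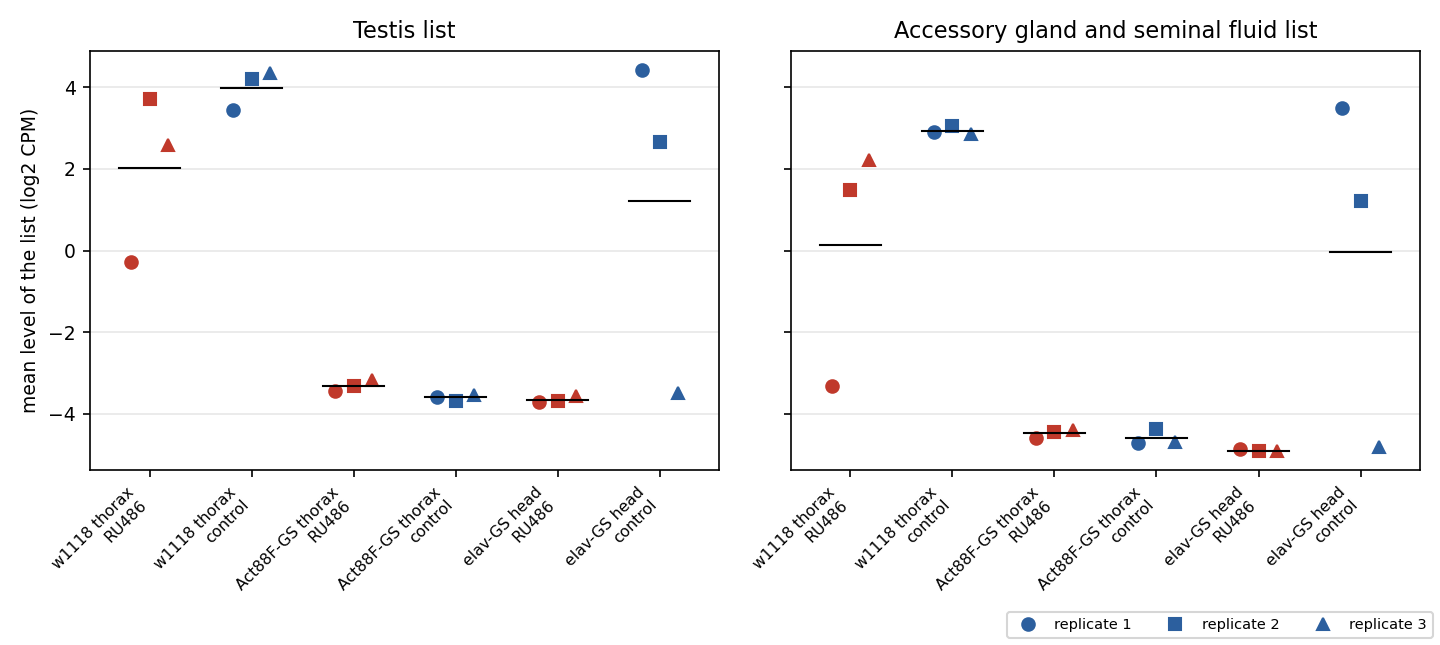
Mean level (log2 CPM) of the testis list (left) and of the accessory gland and seminal fluid list (right) in each of the 18 libraries, RU486 in red and control in blue, with a bar at the mean of each group of 3. RU486 replicate 1 of the *w1118* thoraces lies far below the other 5 *w1118* libraries, the *Act88F-GS* thoraces hold almost none of these transcripts, and control replicates 1 and 2 of the heads hold them while the other 4 heads do not.

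*betaTub85D*, the tubulin of the sperm tail, shows the pattern of the testis list: it was at 5.87, 179.8 and 69.3 CPM in RU486 samples and at 124, 218 and 248 CPM in control samples. *Mst87F*, another sperm tail gene, was at 3.42, 90.2 and 34.4 CPM in RU486 samples and at 58.2, 109.6 and 114 CPM in control samples. The accessory gland peptide gene *Acp26Aa*, whose product acts in the mated female, was at 0.0698, 12.5 and 11.8 CPM in RU486 samples and at 34.9, 23.1 and 32.8 CPM in control samples. Only the last of these genes was lower in every RU486 sample than in every control sample. A few genes ran the other way through a single library. *Dup99B*, a peptide of the ejaculatory duct, was at 0.615, 0.735 and 20.2 CPM in RU486 samples and at 0.218, 0.394 and 0.204 CPM in control samples, and *Obp51a*, an odorant-binding protein gene, was at 0.335, 0.389 and 16.0 CPM in RU486 samples and at 0.0830, 0.131 and 0.108 CPM in control samples. *Met75Cb* was at 0.992, 1.20 and 85.7 CPM in RU486 samples and at 0.311, 0.908 and 0.766 CPM in control samples. All 3 were high in RU486 replicate 3 alone. The list of 3 duct and bulb genes that holds *Dup99B* did not share this pattern. Its summed level was 0.683, 0.893 and 21.1 CPM in RU486 samples and 0.260, 17.6 and 0.311 CPM in control samples. In control replicate 2 that sum came mostly from the other members.

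The head samples, meant as tissue with no reproductive tract, could not serve to set these genes apart. Control replicates 1 and 2 of the heads held 0.863% and 0.235% of their counts on the reproductive lists, against 0.0262% to 0.0331% in the other 4 head samples, and 110 of the 142 listed genes averaged at least 1 CPM over the heads. The genes that averaged at least 1 CPM in heads and are on no reproductive list (10906 genes, the somatic class) therefore still include genes carried by those libraries: 1608 of them were over 2 times higher in both libraries than in any other head sample. The largest decreases by the rule for named genes in that class were of this kind. *CG34434* was at 0.279, 3.74 and 3.50 CPM in RU486 samples and at 9.10, 15.7 and 16.3 CPM in control samples, and *blanks*, an RNA-binding protein gene of the male germline, was at 0.726, 2.94 and 2.56 CPM in RU486 samples and at 7.11, 11.3 and 10.2 CPM in control samples. Both follow the level of the testis list across the RU486 samples. Among the 1995 tested genes that average under 1 CPM in heads, 10 were higher and 221 lower in RU486 samples at an unadjusted p under 0.05 (0.501% and 11.1%), and 76.0% had a fold change below 0. The count of lower genes among them ran from 109 without control replicate 3 to 451 without RU486 replicate 2, with 365 without RU486 replicate 1, 138 without RU486 replicate 3 and 130 without control replicate 2.

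The *Act88F-GS* thoraces gave a cleaner reference for these lists, with 0.0202% to 0.0328% of their counts on the reproductive lists. The genes carried by the 2 head libraries took 3.56% to 4.14% of the counts in these thoraces. That set is not only reproductive, since 26 of the 37 listed gut digestive genes belong to it. The 9138 genes that averaged at least 1 CPM in those 6 thoraces, are on no reproductive list and were not carried by the 2 head libraries are called the thorax class. They were normalised and tested by themselves within the 6 *w1118* samples, so fold changes and counts of groups that do not overlap in the class rest on its own scaling, which differs slightly from that of the printed CPM. A gene whose groups overlap on one of the scales only is pointed out. With the reproductive genes and the genes carried by those head libraries set apart, the variation between replicates was much smaller. The common biological coefficient of variation of edgeR was 13.4% in the thorax class, 36.3% in the somatic class and 40.7% over all genes.

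Within the thorax class no gene passed the test at an adjusted p under 0.05, and the smallest adjusted p was 0.444 (edgeR quasi-likelihood test, Benjamini-Hochberg adjustment over 9119 genes tested). At an unadjusted p under 0.05, 490 genes (5.37%) were higher in RU486 samples and 487 (5.34%) were lower, and the groups did not overlap for 834 genes that were higher (9.15%) and 707 that were lower (7.75%). The differences were small: 4 genes with an unadjusted p under 0.05 were more than 1 log2 unit higher (0.0439%) and 28 more than 1 log2 unit lower (0.307%), and 51.8% of all fold changes were positive and 48.2% negative. A fit that blocked on replicate number gave 926 higher (10.2%) and 932 lower genes (10.2%) by the unadjusted p, again with none past the adjusted threshold and a smallest adjusted p of 0.166. These counts moved with single libraries: 567 genes were higher (6.21%) and 313 lower (3.43%) without RU486 replicate 1, 446 and 987 without RU486 replicate 2, and 153 and 221 without RU486 replicate 3. Without control replicate 1 they were 130 higher and 523 lower, without control replicate 2 153 and 380, and without control replicate 3 564 and 352. Scaling by total counts alone gave 267 higher and 639 lower genes. Other tools differed on this count. DESeq2 gave 16 higher (0.175%) and 46 lower genes (0.504%) past the adjusted threshold, while limma voom with sample weights and the per-gene unequal-variance test gave 0, with 764 higher and 731 lower genes by voom and 336 higher and 308 lower genes by the unequal-variance test at an unadjusted p under 0.05. The genes described below are therefore given as values with their spread, and none of them is called changed.

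**Figure D2:**
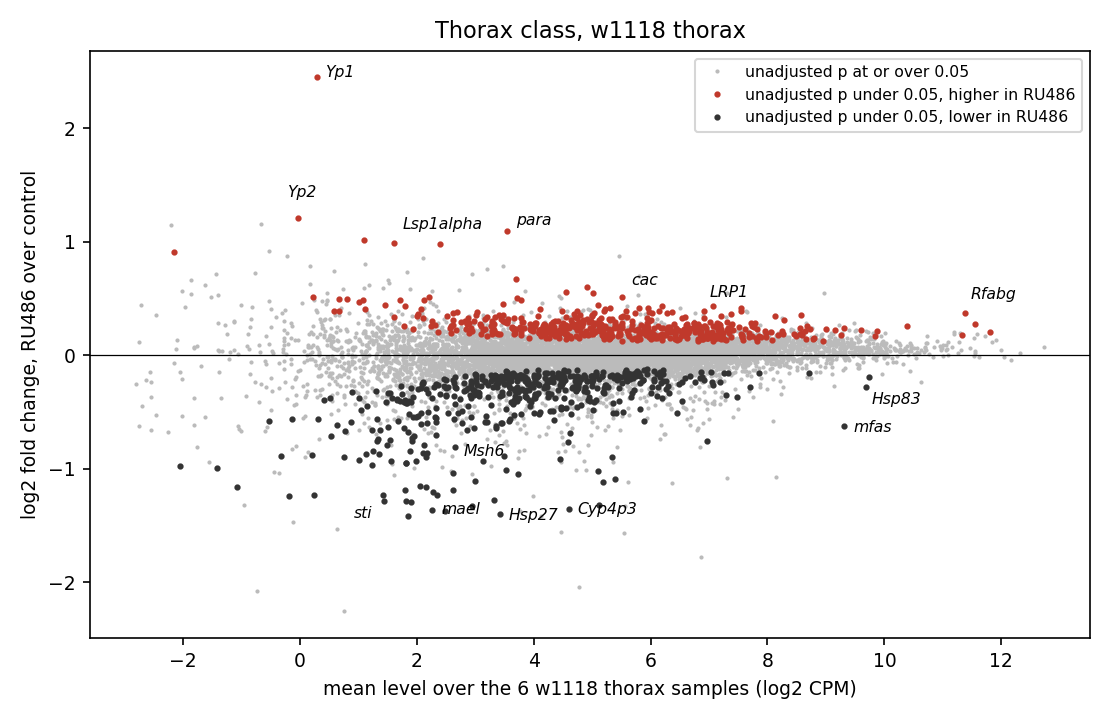
Log2 fold change (RU486 over control) of each tested gene of the thorax class against its mean level over the 6 *w1118* thorax samples (log2 CPM). Red points are the 490 genes higher and dark points the 487 genes lower at an unadjusted p under 0.05. Most lie within 1 log2 unit of 0, and *Yp1*, at a low level, has the largest increase (2.45).

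Neuronal genes were a uniform group among those higher in RU486 samples. The list of 24 genes used by neurons in general (synaptic vesicle and active zone proteins, transmitter synthesis and ion channels) had a mean of 6.06, 6.20 and 6.41 log2 CPM in RU486 samples and of 5.89, 5.89 and 6.01 log2 CPM in control samples. All 24 are in the thorax class, where 22 had a positive fold change, 16 had an unadjusted p under 0.05 (against 5.37% of the class), as did 16 without RU486 replicate 1, and 12 had groups that did not overlap (against 9.15%). The median log2 fold change of the list was 0.28, against 0.01 over the class. In the same-numbered pairs of RU486 and control samples, 20 of the 24 genes were higher in RU486 in all 3 pairs, against 24.3% of the class.

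Among ion channels, *cac*, the pore subunit of the calcium channel that triggers transmitter release, was at 42.1, 57.0 and 63.6 CPM in RU486 samples and at 37.9, 34.7 and 39.6 CPM in control samples. Its log2 fold change was 0.52 ± 0.16 (SE), the largest of the list for which the groups did not overlap. *slo*, the calcium-activated potassium channel of neurons and muscle, was at 282, 311 and 353 CPM in RU486 samples and at 230.4, 239.6 and 263 CPM in control samples (0.35 ± 0.11). The voltage-gated potassium channel *Sh* was at 75.6, 86.9 and 101 CPM in RU486 samples and at 65.4, 64.7 and 71.6 CPM in control samples (0.37 ± 0.12). *Rdl*, the GABA-gated chloride channel, was at 70.8, 78.1 and 93.9 CPM in RU486 samples and at 58.9, 58.5 and 65.2 CPM in control samples (0.39 ± 0.12). In all 4 genes every RU486 sample was above every control sample, with RU486 replicate 3 the highest. The unadjusted p of edgeR's test ran from 0.0147 to 0.0192 in these genes, and none passed after adjustment.

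Synaptic genes differed by similar amounts. *Syt1*, the calcium sensor of synaptic vesicles, was at 179, 210.2 and 251 CPM in RU486 samples and at 152, 156 and 174 CPM in control samples (0.39 ± 0.14), separate in CPM but overlapping on the scale of the class. *brp*, which builds the active zone, was at 122, 148 and 159 CPM in RU486 samples and at 109.9, 113 and 122 CPM in control samples (0.29 ± 0.11), with overlap of RU486 replicate 1 and the highest control. *VGlut*, the vesicular transporter of glutamate, the transmitter of fly motor neurons, was at 74.8, 72.9 and 83.2 CPM in RU486 samples and at 61.7, 61.1 and 67.8 CPM in control samples (0.26 ± 0.08). The pan-neuronal RNA-binding protein gene *elav* was at 37.4, 36.0 and 42.2 CPM in RU486 samples and at 33.3, 30.1 and 33.8 CPM in control samples (0.23 ± 0.09). Only *ple*, tyrosine hydroxylase of dopamine cells, and *Csp*, a vesicle chaperone, had a negative fold change, of -0.08 ± 0.10 and -0.04 ± 0.05. Genes outside the list with the same pattern were the glutamate receptor *mGluRA*, at 12.7, 16.0 and 20.0 CPM in RU486 samples and at 11.5, 11.2 and 11.7 CPM in control samples, and the potassium channel *eag*, at 26.5, 30.0 and 34.7 CPM in RU486 samples and at 22.2, 21.9 and 24.4 CPM in control samples.

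*para*, the voltage-gated sodium channel of action potentials, stood apart. It was at 6.30, 19.6 and 22.0 CPM in RU486 samples and at 7.39, 7.19 and 7.58 CPM in control samples, so that RU486 replicates 2 and 3 were well above all controls and RU486 replicate 1 was below them. Its log2 fold change was 1.09 ± 0.43 with all 6 samples (unadjusted p = 0.0434, edgeR) and 1.48 ± 0.08 without RU486 replicate 1, the library with almost no reproductive transcripts, where the adjusted p was 0.0303. Without that library 4 genes were higher (0.0438%) and 1 was lower (0.011%) at an adjusted p under 0.05: *para*, *CG12531*, *CG34362*, *CG34306* and, lower, *CG13759*. *CG12531* was at 3.21, 8.56 and 9.34 CPM in RU486 samples and at 3.56, 3.42 and 3.60 CPM in control samples, and *CG34362* at 4.47, 12.4 and 12.1 CPM in RU486 samples and at 5.85, 5.70 and 5.87 CPM in control samples. *CG34306* was at 10.2, 18.5 and 19.6 CPM in RU486 samples and at 9.72, 10.3 and 9.96 CPM in control samples. In each of the 4 higher genes RU486 replicate 1 lay near or below the controls.

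**Figure D3:**
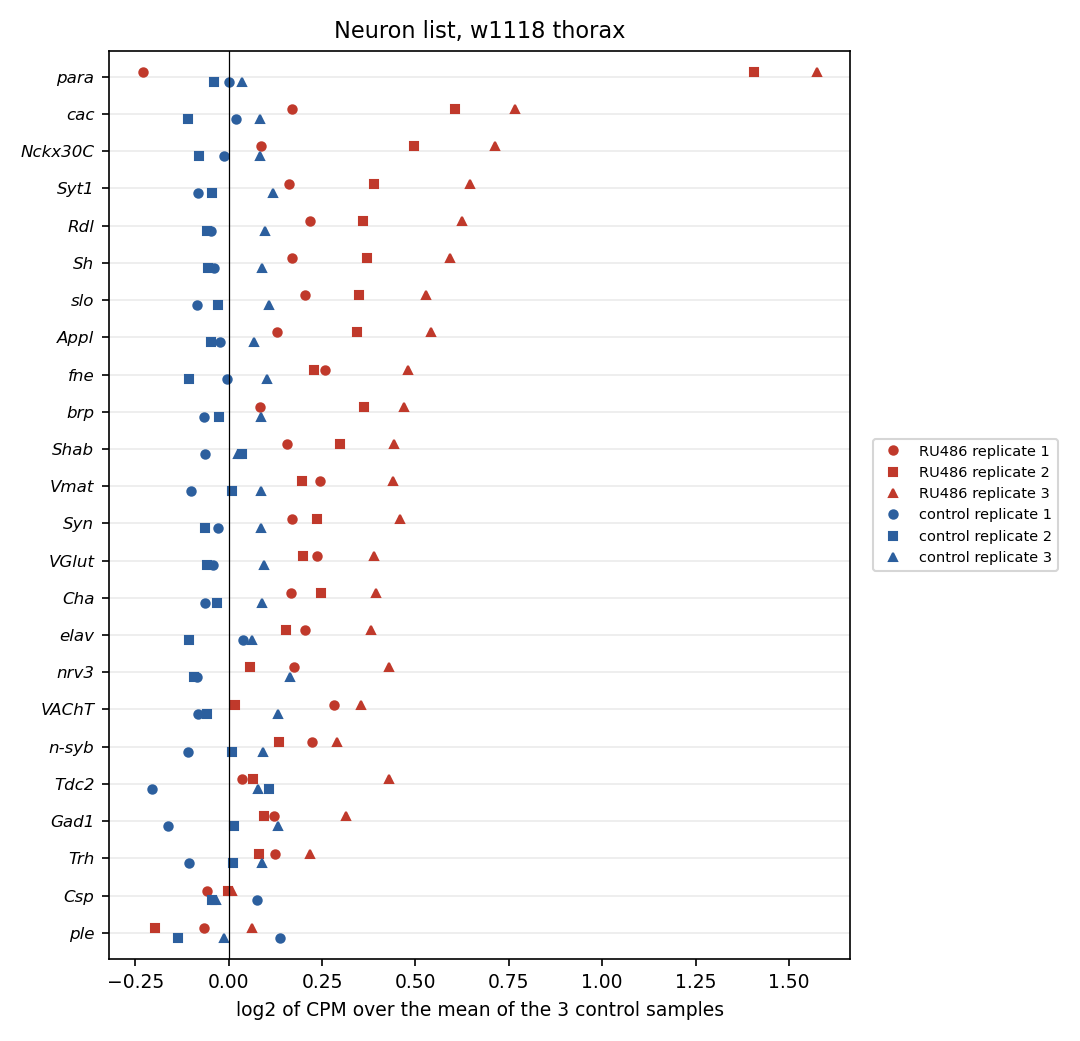
Level of each of the 24 neuron list genes in the 6 *w1118* thorax samples, as log2 of its CPM over the mean of the 3 control samples, with RU486 in red above control in blue and a marker shape for each replicate number. RU486 samples lie to the right of the controls for most genes, RU486 replicate 3 farthest, while *para* is high in RU486 replicates 2 and 3 only and *ple* and *Csp* show no shift.

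Neuronal genes are long, and the longest genes of the class were also higher in RU486 samples, least so in RU486 replicate 1. Whether the drug or differences between the libraries gave this was not tested. When the 8989 genes of the thorax class with a known exon length were split into 10 bins by their summed exon length, the longest bin (6146 bases and more) held 232 of the 483 higher genes at an unadjusted p under 0.05, which is 25.8% of that bin against 1.22% of the shortest bin. Of the 481 lower genes 11 were in the longest bin. The median deviation of the longest genes from their mean over the 6 samples was -0.01, 0.07 and 0.10 log2 CPM in RU486 replicates 1, 2 and 3 and -0.07, -0.05 and -0.05 log2 CPM in control replicates 1, 2 and 3. Of the 22 neuron list genes with a known length, 14 were in the longest bin. After each sample's trend with length was taken out, the median log2 fold change of the list was 0.18. Of its 24 genes, 7 then had an unadjusted p under 0.05, and 16 did so when the replicate block was added. Groups that did not overlap were left in 3 of the 24 genes, against 6.11% of the class. The same correction gave 275 higher (3.02%) and 507 lower genes (5.56%) over the thorax class, and 723 (7.93%) and 991 (10.9%) with the block. The part of length in each gene's difference was not tested beyond this correction.

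**Figure D4:**
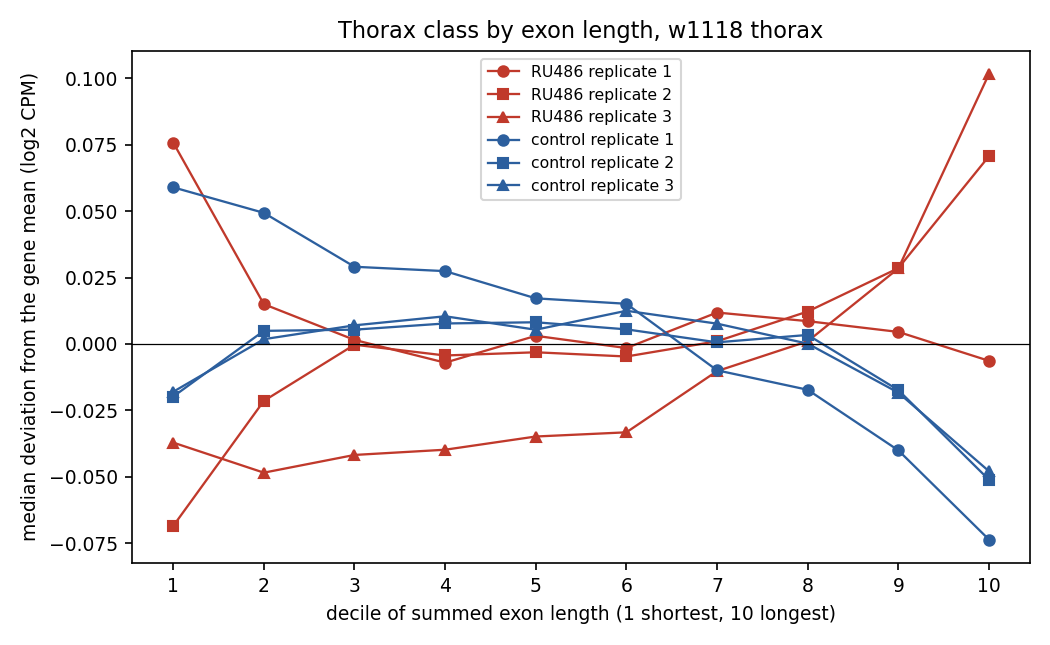
Median deviation of the genes of the thorax class from their mean over the 6 samples (log2 CPM) in 10 bins of summed exon length, a line for each sample, RU486 in red and control in blue. In the longest bin the 3 control samples lie at -0.07 to -0.05 and RU486 replicates 2 and 3 at 0.07 and 0.10, with RU486 replicate 1 at -0.01 between them.

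Other long genes followed. *LRP1*, a large endocytic receptor of the low-density lipoprotein receptor family and the higher gene with the lowest p, was at 134, 136 and 143 CPM in RU486 samples and at 106, 106 and 99.2 CPM in control samples (0.39 ± 0.05, unadjusted p = 0.000231, edgeR). Its log2 fold change with the length correction was 0.22. The homeobox gene *zfh2* was at 42.7, 43.1 and 45.6 CPM in RU486 samples and at 34.4, 34.6 and 35.2 CPM in control samples, and the mechanosensitive channel *Piezo* at 102, 109 and 109 CPM in RU486 samples and at 89.4, 88.2 and 84.4 CPM in control samples. In these 3 genes the groups did not overlap, and the log2 fold changes of *zfh2* and *Piezo*, 0.32 and 0.27, were 0.17 and 0.13 with the length correction. Of the 16 genes that DESeq2 placed higher at an adjusted p under 0.05, 10 of the 15 with a known length were in the longest bin, and 1 of the 46 lower ones was.

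Structural genes of flight muscle were nearly all slightly higher. Of the 27 listed genes 25 had a positive fold change, with a median of 0.11, but 1 had an unadjusted p under 0.05 and 2 had groups that did not overlap. The gene with the lowest p was *bt* (projectin, a giant elastic protein of the sarcomere), at 3179, 3174 and 3549.9 CPM in RU486 samples and at 2557, 2689 and 2818 CPM in control samples (0.28 ± 0.08). *sls*, the titin-like protein of the Z disc, was at 2489, 2664 and 2891 CPM in RU486 samples and at 2191, 2373 and 2376 CPM in control samples (0.19 ± 0.08). Both transcripts are very long, and with the length correction their log2 fold changes were 0.05 and -0.10, and the list median was 0.05. *Mhc*, muscle myosin heavy chain, was at 3687, 3771 and 4695 CPM in RU486 samples and at 3312, 3642 and 3958 CPM in control samples, with overlap. *Act88F*, the flight muscle actin, was at 199.8, 163 and 313 CPM in RU486 samples and at 148, 173 and 189.6 CPM in control samples, again with overlap. The 27 respiratory chain and citric acid cycle genes (26 with a positive fold change, median 0.08) and the 12 glycolytic genes (9 positive, median 0.06) had no member with an unadjusted p under 0.05. Without RU486 replicate 1, 19 of the 27 respiratory chain and citric acid cycle genes were positive, with a median of 0.03, and the glycolytic median was 0.10. The 20 proteasome subunits leaned the other way, with 18 negative fold changes, a median of -0.06 and none with an unadjusted p under 0.05, although 12 of the 20 were lower in RU486 in all 3 same-numbered pairs, against 22.5% of the class. In the fit with the replicate block 3 of the 20 were lower by the unadjusted p, against 10.2% of the class.

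The 3 yolk protein genes, which females express strongly and males hardly at all, were low in both groups and higher in every RU486 sample than in every control sample. *Yp1* was at 2.07, 1.24 and 2.91 CPM in RU486 samples and at 0.446, 0.466 and 0.204 CPM in control samples. *Yp2* was at 1.37, 0.998 and 1.78 CPM in RU486 samples and at 0.601, 0.717 and 0.443 CPM in control samples, and *Yp3* at 2.37, 1.87 and 4.44 CPM in RU486 samples and at 1.81, 1.06 and 1.34 CPM in control samples. Their log2 fold changes were 2.45 ± 0.42, 1.21 ± 0.28 and 1.01 ± 0.37, and *Yp1* was the largest increase of the thorax class among genes with an unadjusted p under 0.05.

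All 7 fat body and hemolymph genes of the thorax class had positive fold changes, with a median of 0.37, and 5 of the 7 were higher in all 3 same-numbered pairs, against 24.3% of the class. An unadjusted p under 0.05 was reached by 2 of the 7, against 5.37% of the class, and by 5 with the replicate block, against 10.2%. With the length correction the median was 0.23 and 1 gene reached it. *Rfabg* (apolipophorin, the main lipid carrier of the blood) was at 3171, 2716 and 3178 CPM in RU486 samples and at 2402, 2094 and 2419 CPM in control samples (0.37 ± 0.10). The larval serum protein genes *Lsp1alpha* and *Lsp1beta*, storage proteins made by fat body, were at 4.08, 5.04 and 3.09 CPM and at 40.5, 64.3 and 67.0 CPM in RU486 samples, and at 1.59, 1.98 and 2.50 CPM and at 19.3, 24.5 and 48.3 CPM in control samples. *Tsf1*, the iron carrier transferrin, was at 2969.6, 2178 and 2405 CPM in RU486 samples and at 2632, 1923 and 1925 CPM in control samples, with overlap. Of these genes *Rfabg* and *Lsp1alpha* had separate groups. *ImpL2*, a secreted protein that binds insulin-like peptides, was at 222, 207 and 211 CPM in RU486 samples and at 173, 191 and 174 CPM in control samples (0.23 ± 0.06).

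Several of the lower genes with the smallest p act in cell division, a grouping noticed after the values had been seen. The lowest p of the thorax class belonged to *sti*, the citron kinase of cytokinesis, at 1.44, 2.00 and 1.43 CPM in RU486 samples and at 3.64, 3.71 and 3.96 CPM in control samples (-1.23 ± 0.16, unadjusted p = 0.000173, edgeR). *Msh6*, which recognises DNA mismatches, was at 4.26, 4.67 and 4.90 CPM in RU486 samples and at 7.11, 8.36 and 8.43 CPM in control samples (-0.81 ± 0.11). *scra* (anillin), which shapes the contractile ring, was at 7.25, 7.79 and 7.14 CPM in RU486 samples and at 11.997, 11.3 and 9.67 CPM in control samples (-0.59 ± 0.09). *tum*, a regulator of the central spindle, was at 1.37, 1.53 and 1.78 CPM in RU486 samples and at 2.91, 2.70 and 2.83 CPM in control samples (-0.87 ± 0.14). In these 4 genes the 3 RU486 samples were all under the controls. The reproductive lists were also lower on average in RU486 samples. Their part in the differences of these genes was not tested beyond a fit with the testis list level as a covariate. Over all alternatives tried, that fit among them, none of these genes changed sign. Their values nearest to no change were -0.91 for *sti*, -0.70 for *Msh6*, -0.53 for *scra* and -0.61 for *tum*.

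A further set of division genes was graded across the RU486 samples. *CycA* (cyclin A) was at 3.23, 7.67 and 4.37 CPM in RU486 samples and at 9.64, 11.4 and 11.6 CPM in control samples, and the mitotic kinase gene *aur* (Aurora A) at 2.43, 4.85 and 4.10 CPM in RU486 samples and at 6.13, 9.02 and 10.4 CPM in control samples. *feo*, which bundles spindle microtubules, was at 3.10, 5.32 and 3.66 CPM in RU486 samples and at 6.71, 9.51 and 8.42 CPM in control samples, and *mars*, a spindle protein, at 3.51, 8.81 and 5.39 CPM in RU486 samples and at 9.76, 16.2 and 16.3 CPM in control samples. In all 4 genes RU486 replicate 1 was the lowest and RU486 replicate 2 the highest of its group, the same order as the testis list. The mitotic kinase gene *cdc2*, which averages under 1 CPM in *Act88F-GS* thoraces and is outside the class, was at 0.894, 1.07 and 0.859 CPM in RU486 samples and at 2.16, 2.75 and 2.43 CPM in control samples. A list of 54 cell cycle and replication genes was drawn up after these values had been seen and is given only as a description, with no test. Its mean was 2.34, 2.68 and 2.45 log2 CPM in RU486 samples and 2.98, 3.00 and 2.94 log2 CPM in control samples, and 42 of its 45 members in the thorax class had a negative fold change.

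Some genes of the Piwi-interacting RNA pathway, which silences transposons in the germline, had lower values. In a list drawn up after the values had been seen, 12 of the 14 members in the class had a negative fold change. *mael* (Maelstrom) was at 2.12, 4.06 and 2.67 CPM in RU486 samples and at 5.60, 7.14 and 7.46 CPM in control samples (-1.20 ± 0.25), and *squ* (Squash) at 1.91, 2.98 and 2.32 CPM in RU486 samples and at 3.47, 5.06 and 5.29 CPM in control samples (-0.95 ± 0.23). *RpS5b*, a ribosomal protein gene used mainly in the germline and a close copy of *RpS5a*, was at 0.908, 3.27 and 1.75 CPM in RU486 samples and at 3.94, 5.35 and 6.44 CPM in control samples (-1.42 ± 0.45). It was the largest decrease by the rule for named genes, and how reads shared by the copies were counted is not known. Of the 83 ribosomal protein genes in the class 64 had a positive fold change, with a median of 0.03. *tud* (Tudor), another gene of that list, had higher values, at 674, 684 and 714 CPM in RU486 samples and at 578, 581 and 575 CPM in control samples. With the testis list level as a covariate, 525 genes of the thorax class were higher and 307 lower at an unadjusted p under 0.05, and none passed after adjustment.

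**Figure D5:**
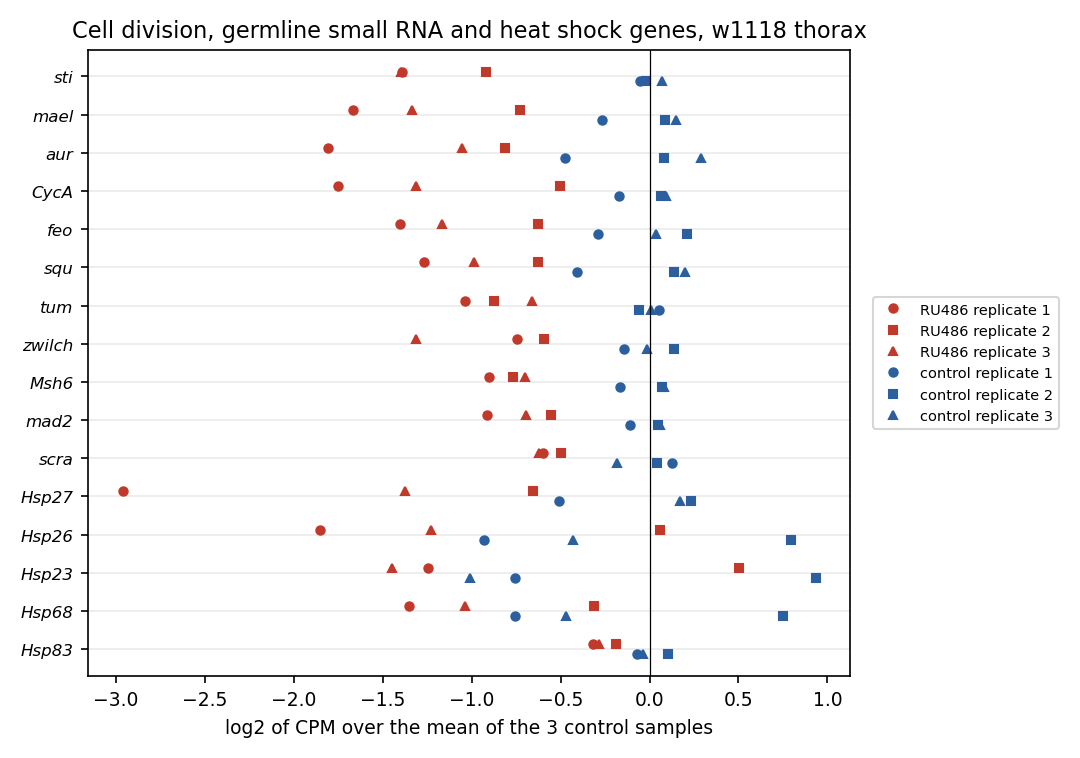
Level of 11 division and germline genes and 5 heat shock genes in the 6 *w1118* thorax samples, as log2 of CPM over the mean of the 3 control samples, RU486 in red above control in blue with a marker shape for each replicate number. RU486 samples lie left of the controls for the division and germline genes, while *Hsp26*, *Hsp23* and *Hsp68* overlap, with replicate 2 high in both groups.

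Heat shock genes mostly had lower values in RU486 samples when samples were compared within their pairs. Of the 18 in the thorax class 16 had a negative fold change, with a median of -0.39, while 2 had an unadjusted p under 0.05 and a negative fold change without the block, against 5.34% of the class, and 10 with it, against 10.2% of the class. In 12 of the 18 all 3 same-numbered pairs had the lower value in RU486, against 22.5% of the class. *Hsp26*, a small heat shock protein gene, was at 10.7, 40.4 and 16.5 CPM in RU486 samples and at 20.3, 67.2 and 28.7 CPM in control samples. The groups overlapped, but the log2 ratios of the 3 pairs were -0.92, -0.75 and -0.84, and the unadjusted p was 0.245 without the block and 2.85e-05 with it (adjusted p = 0.166, edgeR). *Hsp23* had pair ratios of -0.49, -0.45 and -0.48 log2 units and *Hsp68* of -0.60, -1.08 and -0.61 log2 units. Replicate 2 of both groups held the highest level of these 3 genes. The direction depended on which samples entered the fit: without control replicate 2 the log2 fold change of *Hsp23* was 0.41, and with the testis list level as a covariate it was 0.21 for *Hsp23* and 0.00046 for *Hsp26*.

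*Hsp27* was at 2.00, 9.89 and 6.01 CPM in RU486 samples and at 10.9, 18.3 and 17.5 CPM in control samples (-1.40 ± 0.54), with no overlap. The RU486 samples were in the order they had for the testis list, the control samples were not. The cytosolic chaperone *Hsp83* (the fly Hsp90) was at 716, 783 and 734 CPM in RU486 samples and at 850.2, 958 and 871 CPM in control samples (-0.28 ± 0.07, unadjusted p = 0.00541, edgeR). All 3 RU486 samples were under all controls, and the pair ratios were -0.25, -0.31 and -0.29 log2 units. The near-identical *Hsp70* copies share reads, so each is uncertain by itself. *Hsp70Aa*, as an example, was at 7.39, 9.80 and 5.31 CPM in RU486 samples and at 9.92, 20.5 and 7.49 CPM in control samples. The mitochondrial chaperone *Hsp60* was at 267, 291 and 281 CPM in RU486 samples and at 285, 279.8 and 276 CPM in control samples (-0.02 ± 0.05), and *alphaTub84B*, a tubulin gene in general use, at 1181, 1304 and 1284 CPM in RU486 samples and at 1323, 1293 and 1314 CPM in control samples. Both overlapped in CPM, *alphaTub84B* (-0.08 on the log2 scale) not on the scale of the class.

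Detoxification genes gave no common direction. Of 70 cytochrome P450 genes in the class, enzymes that oxidise foreign compounds and hormones, 47 had a positive and 23 a negative fold change (median 0.07), and 4 higher and 3 lower genes had an unadjusted p under 0.05, which is close to the 5.37% and 5.34% of the class. With the replicate block the counts were 12 and 5, against 10.2% of the class in each direction. *Cyp4p3* was the lowest, at 7.28, 19.0 and 15.1 CPM in RU486 samples and at 39.7, 33.9 and 31.0 CPM in control samples (-1.35 ± 0.33). *Cyp28c1* was at 1.54, 3.00 and 4.64 CPM in RU486 samples and at 7.86, 6.11 and 7.25 CPM in control samples, and *Cyp49a1* at 1.34, 2.64 and 2.16 CPM in RU486 samples and at 4.14, 3.74 and 3.72 CPM in control samples. In all 3 the groups were separate and RU486 replicate 1 was the lowest. *Cyp6t1* was at 28.5, 27.1 and 31.8 CPM in RU486 samples and at 22.9, 21.7 and 26.5 CPM in control samples, and *Cyp309a1* at 38.0, 35.2 and 40.7 CPM in RU486 samples and at 29.8, 28.8 and 34.9 CPM in control samples. *Cyp6g1*, known from insecticide resistance, was at 387, 387 and 403 CPM in RU486 samples and at 312, 379 and 379.8 CPM in control samples. The groups of these last 3 genes overlapped on the scale of the class. Of 18 glutathione S-transferases 5 were positive and 13 negative, with a median of -0.05 and none with an unadjusted p under 0.05, as was the case for the 10 UDP-glycosyltransferases (5 positive, 5 negative, median 0.02, or -0.05 without RU486 replicate 1).

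Immune genes varied between single samples more than between groups. The 22 antimicrobial peptide genes in the class had 8 positive and 14 negative fold changes, a median of -0.48 and none with an unadjusted p under 0.05. *Dpt* (Diptericin), a target of the Imd pathway, was at 125, 14.7 and 15.4 CPM in RU486 samples and at 278, 57.6 and 2.29 CPM in control samples. *Dro* (Drosocin) was at 12.6, 10.0 and 9.54 CPM in RU486 samples and at 112, 17.1 and 2.77 CPM in control samples. For both genes the control samples spanned a range that held every RU486 value, and without control replicate 1 the log2 fold changes were 0.74 and 0.07. Of 19 nuclear receptor and ecdysone genes, the family to which the human targets of RU486 belong, 17 had a positive fold change, with a median of 0.08, no unadjusted p under 0.05 and a median of -0.02 after the length correction. Blood cell genes (9 in the class, 7 positive, median 0.07) had no unadjusted p under 0.05 either. Gut digestive enzymes, most of which are outside the class, had summed levels of 4027, 6532 and 8296 CPM in RU486 samples and of 7519, 4284 and 10683 CPM in control samples.

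The rule for named genes took 10 genes in each direction from the thorax class. Beside *Yp3*, *Lsp1alpha*, *cac* and *mGluRA*, the higher ones were *CG1402*, *Rh7* (a rhodopsin), *CG13739*, *Muc68Ca*, *CG15894* and *Cyp6a16Psi*, with log2 fold changes of 0.44 to 0.48. *CG15894* was at 10.3, 14.0 and 14.3 CPM in RU486 samples and at 8.64, 9.79 and 9.49 CPM in control samples. Beside *RpS5b*, *Hsp27*, *Cyp4p3* and *mars*, the lower ones were *CG43800*, *CG15864*, *CG13759*, *brv3* (an ion channel of the brivido family), *PIP82* and *CG12592*, with log2 fold changes of -1.37 to -1.28. *CG13759* was at 1.82, 5.81 and 5.66 CPM in RU486 samples and at 11.1, 11.0 and 10.9 CPM in control samples, and was the lower gene past the adjusted threshold without RU486 replicate 1 (-0.96 ± 0.07). *brv3* was at 1.31, 3.22 and 2.00 CPM in RU486 samples and at 3.85, 5.74 and 6.29 CPM in control samples. RU486 replicate 1 was the lowest sample for each of the 10 lower genes.

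Set against *Act88F-GS* thoraces, the response of *w1118* thoraces differed in 2441 of the 9138 genes of the thorax class at an adjusted p under 0.05 (edgeR, test of the difference between the stocks' log2 fold changes), with 1532 more positive in *w1118* (16.8%) and 909 more negative (9.95%). Of the 24 neuron list genes it was passed by 1, *slo*, with log2 fold changes of 0.35 ± 0.11 in *w1118* and of -0.20 ± 0.10 in *Act88F-GS* thoraces. *cac* had log2 fold changes of 0.52 ± 0.16 in *w1118* and of 0.22 ± 0.21 in *Act88F-GS* thoraces, a difference of 0.29 ± 0.28 that did not pass. In *Act88F-GS* thoraces 22 of the 24 genes also had a positive fold change, with a median of 0.12, against 0.28 in *w1118*. There 4 of the 24 were higher at an unadjusted p under 0.05 (edgeR), against 21.3% of the class. *slo* was thus not typical of the list.

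Among genes with lower values in *w1118* RU486 samples, which enter this contrast with that same fold change, *mael* had log2 fold changes of -1.20 ± 0.25 in *w1118* and of 0.56 ± 0.20 in *Act88F-GS* thoraces (difference -1.78 ± 0.34, adjusted p = 0.00359), and *Hsp27* of -1.40 ± 0.54 in *w1118* and of 2.26 ± 0.38 in *Act88F-GS* thoraces (difference -3.67 ± 0.74, adjusted p = 0.00446). *Msh6* had -0.81 ± 0.11 in *w1118* and 0.01 ± 0.10 in *Act88F-GS* thoraces (difference -0.83 ± 0.15, adjusted p = 0.00278). *sti* had -1.23 ± 0.16 in *w1118* and -0.10 ± 0.26 in *Act88F-GS* thoraces (difference -1.14 ± 0.32, adjusted p = 0.0227). For *aur* the *Act88F-GS* RU486 samples were far apart, at 1.70, 17.0 and 83.2 CPM, so that its difference of -5.78 ± 1.45 rests on an uneven group. *Hsp83* was lower in RU486 samples of both stocks, with -0.28 ± 0.07 in *w1118* and -0.72 ± 0.11 in *Act88F-GS* thoraces. The paper reports the other direction by qRT-PCR, with *Hsp83* induced by RU486 in *Act88F-GS* muscle. Why these measures differ was not tested. Of 23 antimicrobial peptide genes 20 were more negative in *w1118*. All 23 had a positive fold change in *Act88F-GS* thoraces (median 3.20), against 8 of 22 in *w1118* (median -0.48, 0 with an unadjusted p under 0.05). Of the 27 respiratory chain and citric acid cycle genes 16 were more positive and 1 more negative in *w1118*. Their median log2 fold change was 0.08 in *w1118* and -0.97 in *Act88F-GS* thoraces. *CG10219*, a succinate dehydrogenase subunit, had log2 fold changes of 0.17 ± 0.08 in *w1118* and of -1.40 ± 0.16 in *Act88F-GS* thoraces (difference 1.56 ± 0.19). The stocks differ in genetic background as well as in the driver, and the parts of these cannot be told apart.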

How the data were processed

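The authors extracted RNA with TRIzol, prepared stranded mRNA libraries and deposited a table of raw read counts per gene symbol (HTSeq) for each sample. BWA, STAR, HTSeq and the genome build dm3 are named in the submitters' processing notes, without versions. The 6 *w1118* thorax count tables were analysed as deposited with edgeR 4.0.16 (R 4.3.3): filterByExpr, TMM scaling, quasi-likelihood test, Benjamini-Hochberg adjustment at 0.05. CPM and list means used a prior count of 1 on the log2 scale. Between 64165964 and 96176923 counts per sample stood behind the values. The response was compared between stocks as a difference of log2 fold changes in one fit over 12 thorax samples. DESeq2 1.42.0, limma 3.58.1 (voom) and an unequal-variance test on log2(CPM + 1) were alternatives, with other scalings, filters, head minimums, a testis covariate, a replicate block and each sample left out.

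The gene lists and members were chosen with earlier results of these data known. The planned somatic class (at least 1 CPM on average in heads, on no reproductive list) was kept, but the thorax class, the length correction and the cell cycle and piRNA lists were added after the data had been seen, because 2 head libraries held reproductive transcripts. Named genes were the 10 largest increases and 10 largest decreases by a rule. It asked for no overlap between the groups, an unadjusted p under 0.05 and an average of 1 log2 CPM or more. The member of each list with the lowest p and that with the highest level were added, with reproductive, strain and sex markers. From the study's qRT-PCR *Hsp26*, *Hsp83*, *Hsp60* and the reference gene *alphaTub84B* were taken, and its other genes were not. The choice of the largest increases and decreases was made in the somatic class and again in the thorax class. List members were chosen by p and level in the somatic-class fit, or in the all-gene fit where that class held none of them. Other genes were chosen after their values were seen, among them *Msh6*, *tum*, *CycA*, *feo*, *squ*, *cdc2*, *eag*, *Piezo*, *zfh2*, *Cyp28c1*, *Cyp49a1* and the 5 genes past the threshold without RU486 replicate 1.

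The labels number the replicates but state no pairing. Whether equal numbers pair the samples was checked by the correlation of deviations from the group means. Same-numbered samples gave 0.353, 0.260 and 0.586 in the thorax class and 0.566, 0.303 and 0.469 over all genes. Over all genes RU486 replicate 2 and control replicate 3 gave 0.448, above the value for both replicates 2. Fits with the number as a block are given where they move a result. They and the counts over pairs rest on a pairing inferred from these same data. Exon lengths came from a current annotation (11943 symbols matched directly and 3426 as synonyms, of 15682). Its build differs from that of the files, so no coordinates or sequences are given. Scripts were tested on simulated data.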

Additional observations from a re-analysis of the deposited data

Results flagged for a closer look

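Of the 80 genes named in the text that entered the fit over both stocks, 29 had a response to RU486 that differed between *w1118* and *Act88F-GS* thoraces at an adjusted p under 0.05 (edgeR), where 26.7% of the thorax class did. Many were named for their fold change in *w1118*, which is part of this contrast. The values are the log2 fold change in *w1118* minus that in *Act88F-GS* thoraces, with the SE.

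Among stress and immune genes the difference was -8.02 ± 1.45 for *Dro* (-2.04 in *w1118* itself, and 0.073 there without control replicate 1), -3.67 ± 0.74 for *Hsp27*, -1.99 ± 0.63 for *Hsp68* and 0.43 ± 0.12 for *Hsp83*. Among division and germline genes it was -5.78 ± 1.45 for *aur*, -3.70 ± 0.87 for *tum*, -2.13 ± 0.38 for *CycA*, -1.26 ± 0.21 for *scra*, -1.14 ± 0.32 for *sti* and -0.83 ± 0.15 for *Msh6*. It was -1.78 ± 0.34 for *mael*, -1.66 ± 0.32 for *squ* and -3.07 ± 0.91 for *RpS5b*, which shares reads with a close copy. Among P450 genes it was -1.79 ± 0.39 for *Cyp4p3*, -1.44 ± 0.46 for *Cyp28c1* and -0.94 ± 0.32 for *Cyp49a1*. Among muscle and respiratory genes it was 2.50 ± 0.63 for *Act88F*, 1.299 ± 0.29 for *bt*, 0.99 ± 0.19 for *sls* and 1.56 ± 0.19 for *CG10219*. The remaining values were 0.54 ± 0.15 for *slo*, 0.66 ± 0.17 for *Pdp1*, 0.998 ± 0.24 for *ImpL2*, -0.42 ± 0.12 for *Obp99c*, -0.89 ± 0.09 for *Ggt-1* and -1.37 ± 0.19 for *mfas*. Of the genes known by a CG number alone, *CG43800* had -2.22 ± 0.56, *CG13759* -1.66 ± 0.51 and *CG12592* -1.53 ± 0.43.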

How the results depend on the processing

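No gene passed an adjusted p under 0.05 over all genes, in the somatic class, among genes not detected in heads or in the thorax class under any scaling, filter, head minimum, covariate or length correction tried, nor with limma voom or the unequal-variance test. DESeq2 gave 290 genes over all genes, 162 in the somatic class, 35 among genes not detected in heads and 62 in the thorax class. The cause was not tested. Leaving out each replicate in turn gave 0 to 5 genes in the thorax class, the 5 without RU486 replicate 1, and 0 in the other sets. The replicate block, with same-numbered samples paired, gave 0 genes in each set and changed no call. The count of genes whose response differed between stocks was 1911 to 2453 in the thorax class over the alternatives, and 2382 with the replicate block. Some single genes changed sign. With the testis covariate the log2 fold change was 0.26 for *betaTub85D*, 0.29 for *Mst87F*, 0.21 for *Hsp23*, 0.00046 for *Hsp26*, 0.036 for *Hsp60* and -0.059 for *Tsf1*. With the length correction it was -0.10 for *sls*, and -0.11 when the replicate block was added. Leaving out each sample in turn gave -0.053 (without RU486 replicate 2) to 0.17 for *Abd-B*, -0.071 to 0.012 (without RU486 replicate 1) for *Hsp60*, -2.90 to 0.74 (without control replicate 1) for *Dpt*, -2.59 to 0.073 (without control replicate 1) for *Dro* and -1.38 to 0.41 (without control replicate 2) for *Hsp23*. With 3 samples a group, only differences well above the spread between replicates can pass after adjustment.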

Other observations

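Several lists not described above leaned to one side without a clear difference. Of the 9 circadian clock genes in the thorax class 7 had a positive fold change (median 0.08). At an unadjusted p under 0.05, 0 were higher and 1 was lower, against 5.37% and 5.34% of the class. With the replicate block 3 were higher and 0 lower, against 10.2% of the class in each direction. *tim* (Timeless) was at 889.9, 852 and 985 CPM in RU486 samples and at 719, 771 and 844 CPM in control samples, and *Pdp1*, a clock output factor, at 544, 519 and 621 CPM in RU486 samples and at 454, 467 and 508 CPM in control samples. Their groups were separate in CPM but overlapped on the scale of the thorax class, and their log2 fold changes of 0.20 ± 0.10 and 0.22 ± 0.09 were 0.11 and 0.07 after the length correction. Of 9 lipid genes 8 were positive (median 0.17). *ACC*, acetyl-CoA carboxylase of fatty acid synthesis, was at 1067, 906 and 1053 CPM in RU486 samples and at 843, 848 and 887 CPM in control samples, again with overlap on the scale of the class. Of 16 cuticle protein genes 12 were positive (median 0.19), and of 16 odorant-binding protein genes 13 (median 0.09), with *Obp99c* at 802, 712 and 705 CPM in RU486 samples and at 697, 699 and 638 CPM in control samples. No cuticle or odorant-binding protein gene had an unadjusted p under 0.05 without the replicate block. With the block 4 cuticle protein genes were higher and 1 lower, and 3 odorant-binding protein genes were higher and 0 lower. Each direction held 10.2% of the class in that fit.

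Among genes outside all lists, chosen after their values were seen, *Ggt-1*, a gamma-glutamyl transferase that acts on glutathione, was at 75.3, 81.5 and 84.4 CPM in RU486 samples and at 109, 106 and 99.7 CPM in control samples. Its log2 fold change was -0.40 ± 0.06 in *w1118* and 0.49 ± 0.07 in *Act88F-GS* thoraces, a difference of -0.89 ± 0.09 (adjusted p = 6.03e-05, edgeR). *mfas*, an extracellular matrix gene, was at 417, 603 and 494 CPM in RU486 samples and at 751, 903 and 658 CPM in control samples, with log2 fold changes of -0.63 ± 0.16 in *w1118* and of 0.74 ± 0.07 in *Act88F-GS* thoraces (difference -1.37 ± 0.19, adjusted p = 0.000423). In both genes every RU486 sample was under every control sample in *w1118*.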
